A study of Mus musculus with 12 samples.

Results

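Elastic fibres give the aorta its recoil. Their core is cross-linked elastin, laid down on a scaffold of fibrillin microfibrils with the help of fibulins, latent TGF-beta binding proteins and other small glycoproteins, and sealed by lysyl oxidases, which join tropoelastin molecules through their lysines. Most of the elastin of an artery is deposited by smooth muscle cells early in life and turns over very slowly afterwards. Messenger RNA levels in an adult vessel therefore describe the RNA present at sampling and not the amount of elastic fibre in the wall.

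The genes described here are 10 components of the elastic fibre: elastin (Eln), the microfibril and microfibril-associated genes Fbn1, Mfap4, Emilin1 and Ltbp4, the fibulins Fbln5, Efemp1 and Efemp2, and the cross-linking enzymes Lox and Loxl1. They were chosen by name, as the gene probes of the array that carry 1 of these symbols. Of 55681 gene probes on the array, 14 carry such a symbol. Fbln5, Lox, Loxl1 and Ltbp4 have 2 probes each and the other genes 1. All 14 passed the filter on dim probes, so that the 10 genes are 10 of 16853 genes tested.

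Total RNA came from the descending aorta of male C57BL/6 mice, 6 of them 20 months and 6 of them 6 months old, all on standard chow and with no other treatment named. The vessel had been flushed and freed of surrounding fat and connective tissue. Each mouse gave 1 array, a 1-colour Agilent array on which brightness of a probe reports the abundance of its RNA. All values are log2 signals relative to the 75th percentile of the same array, and a change is the value at 20 months minus that at 6 months. The aorta is a mixed tissue, so that fewer cells of a type and less RNA per cell cannot be told apart.

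On a single array, 47.5% to 55.8% of the gene probes were detected (well above background). Each of 3 slides carried 2 mice of either age, and the third slide was scanned on another, later day. Column 3 of the slides held every mouse of 20 months and none of 6 months, so that position on the slide and age cannot be told apart. Defining markers of smooth muscle (Acta2, Myh11 and Tagln), endothelium (Pecam1 and Cdh5) and fibroblasts (Pdgfra and Dpt) were well above background on all 12 arrays. All 6 white and all 5 brown adipocyte markers were so too. Fabp4 averaged 9.25 at 20 months and 9.53 at 6 months, Ucp1 7.28 and 7.92, and Lep -1.79 and -1.89. Myh11 averaged 7.03 and 7.05. Heart muscle markers stood far above the 12-array mean in 20 months replicate 1 (by 3.94, log2, mean of 6 genes) and in 6 months replicate 1 (by 2.59), and markers of T and NK cells did so in 6 months replicate 4 (by 1.53). They are referred to as the 3 marker-high arrays. The direction count and some of the changes are also given without them, and the correlations and SDs are not. Mesothelial markers were highest in 6 months replicate 3 (by 2.55), which is not among the 3 and is left out in a further setting, chosen after seeing the data.

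What each signal reports is a stretch of 60 bases. The stretches below belong to the genes on which the results turn: Eln as the core of the fibre, Efemp1 as the gene with the clearest separation of the ages, both probes of Fbln5 and both of Loxl1 because pairs of probes allow a second reading of 1 gene, and Mfap4 and Emilin1 as microfibril-associated genes that were lower in the mean at 20 months. For Eln, Efemp1, Fbln5 and Mfap4 half-length stretches are shown, bases 1 to 30 for Eln, Efemp1 and the dimmer Fbln5 probe and bases 31 to 60 for the brighter Fbln5 probe and Mfap4. Capitals mark AATAAA or ATTAAA, the hexamers of polyadenylation signals.
Eln: ataccggaagccttgacgatggatttggtg
Mfap4: gaggtctcAATAAActtcaggatctgatgg
Emilin1: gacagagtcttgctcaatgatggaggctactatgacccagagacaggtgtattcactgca
Fbln5, brighter probe: acagaggtatccagactgATTAAAtatttg
Fbln5, dimmer probe: agacaaaactagaacatgacctcttttagt
Efemp1: catcttagcatgaagatcaagaaggagggg
Loxl1, brighter probe: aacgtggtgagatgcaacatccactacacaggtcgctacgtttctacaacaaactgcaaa
Loxl1, dimmer probe: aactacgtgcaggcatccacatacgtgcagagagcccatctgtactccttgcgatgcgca

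In the mm9 positions of the array files, the Eln probe lies on the minus strand at chr5:135179129-135179188, the Mfap4 probe on the plus strand at chr11:61302147-61302206 and the Efemp1 probe on the plus strand at chr11:28826647-28826706. The probe of Emilin1, on the plus strand at chr5:31222545-31223001, covers 457 bases of the genome with its 60 bases, so that it is split there. The Fbln5 probes lie on the minus strand at chr12:102988153-102988212 and chr12:102984878-102984937, and those of Loxl1 on the minus strand at chr9:58138570-58138629 and chr9:58145451-58145510. No annotation of mm9 was used here, so that exons and untranslated regions are not assigned. A hexamer was found in 2 of the 14 member probes, the brighter Fbln5 probe and the Mfap4 probe, searched on the probe's strand, and in 13.7% of all gene probes, or 18.6% when either strand counts. This is a description of the letters and names no site. The G and C content of the 14 probes ran from 30% to 55%, and no run longer than 16 bases of any of them occurs in a probe that carries another gene's name.

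The series sets adult against old vessels. None of the 10 elastic fibre genes passed the test at an adjusted p under 0.05 (0 of 10, limma with Benjamini-Hochberg adjustment over all genes tested), where 0.314% of all genes did. At an unadjusted p under 0.05, 2 of 10 were called, Efemp1 and Fbln5, both with a higher signal at 20 months, beside 7.99% of all genes (4.57% in this direction and 3.42% in the other). The 6 values at 20 months all lay above the 6 at 6 months for Efemp1 alone among the 10, as they did for 0.617% of all genes, and no member had all values at 20 months below those at 6 months (0.196% of all genes). The change was positive for 7 members and negative for Mfap4, Emilin1 and Ltbp4, with a median of 0.05, where 43.9% of all genes had a positive change and the median was -0.02. Changes of the 10 genes ran from -0.17 to 0.43, whereas the 5th and 95th percentiles of all genes were -0.30 and 0.28.

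**Figure D1:**
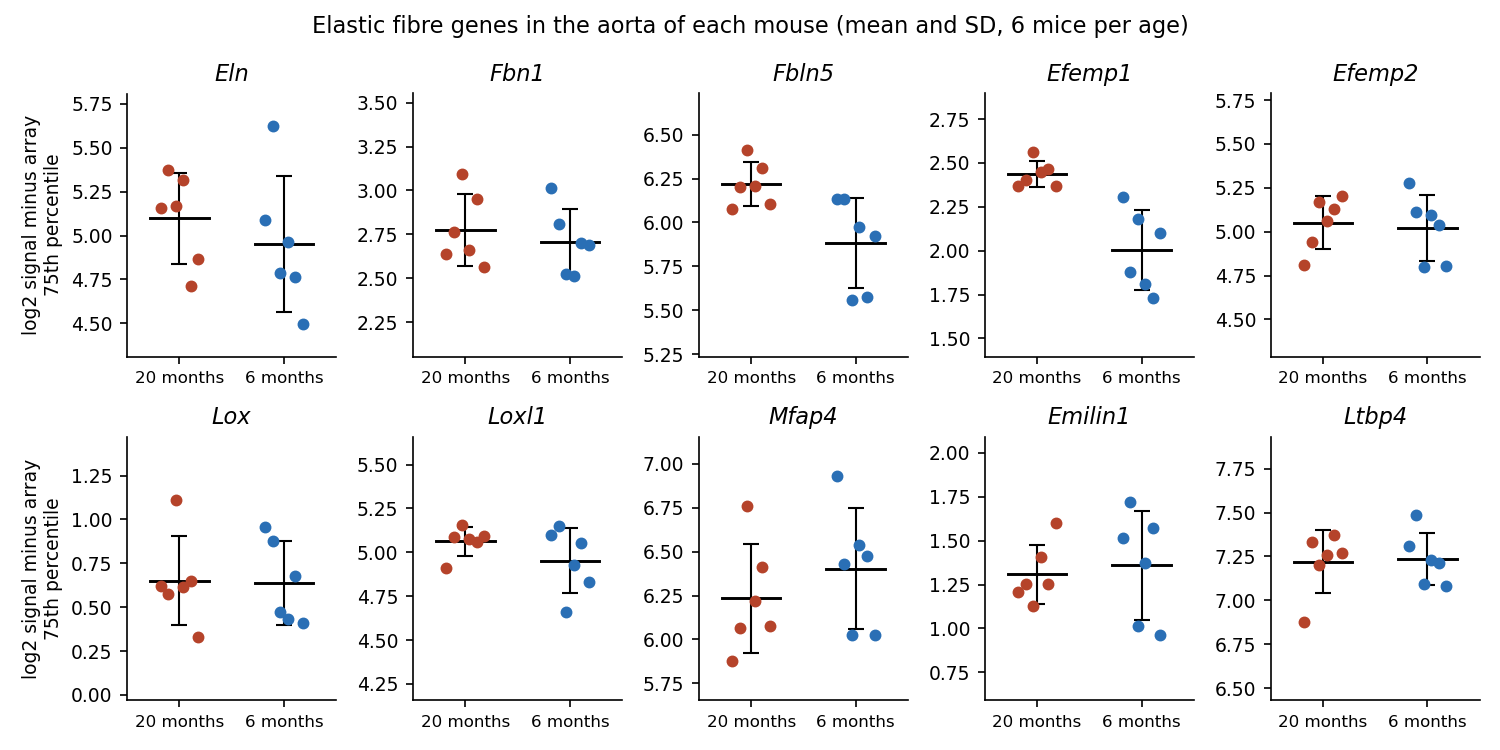
Log2 signal of each elastic fibre gene (y axis, relative to the array's 75th percentile, same height of scale but different levels in each panel) in the 6 mice at 20 months (red) and the 6 at 6 months (blue). Points are mice, the bar is the mean and the whiskers the SD; the ages do not overlap for Efemp1, where the mice at 20 months sit between 2.37 and 2.56 and those at 6 months between 1.73 and 2.30, and overlap in the other 9 panels.

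Eln encodes tropoelastin, the monomer of the elastin core. Its signal (probe A_52_P609972) ran from 4.71 to 5.37 with a median of 5.16 at 20 months, and from 4.49 to 5.62 with a median of 4.87 at 6 months. The ages overlapped almost fully: the highest and the lowest of the 12 values both belonged to mice of 6 months. Eln averaged 5.10 ± 0.26 at 20 months and 4.95 ± 0.39 at 6 months (SD, n = 6 each). The change was 0.15 ± 0.17 (SE, as for every change given with ±), a ratio of 1.11 whose 95% interval runs from 0.853 to 1.44, with an adjusted p of 0.848 in limma. That interval includes both lower and higher elastin RNA at 20 months. By slide, the change was 0.06, 0.23 and 0.15.

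Fbn1 encodes fibrillin-1, the main structural protein of microfibrils. It ran from 2.56 to 3.09 with a median of 2.71 at 20 months and from 2.51 to 3.01 with a median of 2.69 at 6 months, so that the medians nearly coincided. The change of Fbn1 was 0.07 ± 0.11, a ratio of 1.05 with an interval of 0.887 to 1.24 (adjusted p 0.899, limma). Fbn1 is thus bounded more tightly than Eln.

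Mfap4, a fibrinogen-like glycoprotein of microfibrils, ran from 5.88 to 6.76 with a median of 6.15 at 20 months, and from 6.02 to 6.93 with a median of 6.45 at 6 months. The ages overlapped over most of this span. Mfap4 had the most negative change among the 10 genes, -0.17 ± 0.17, a ratio of 0.889 with an interval of 0.685 to 1.15 (adjusted p 0.822, limma). Its sign was not shared by all slides, with -0.26, -0.36 and 0.11 in slides 1 to 3, and it was 0.07 ± 0.17 without the 3 marker-high arrays.

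Emilin1 encodes a glycoprotein at the interface of elastin and microfibrils. It ran from 1.12 to 1.60 with a median of 1.254 at 20 months, inside the span at 6 months, which was 0.96 to 1.72 with a median of 1.44. The change was -0.05 ± 0.14 (adjusted p 0.942, limma), and 0.01 ± 0.175 without the 3 marker-high arrays. Ltbp4, a latent TGF-beta binding protein that also takes part in elastic fibre assembly, has a brighter and a dimmer probe. The brighter ran from 6.88 to 7.38 with a median of 7.27 at 20 months, and from 7.08 to 7.49 with a median of 7.22 at 6 months. Its change of -0.02 ± 0.10 (adjusted p 0.981, limma) stood beside 0.15 ± 0.10 for the dimmer probe (adjusted p 0.764 over all probes), so that the probes of Ltbp4 differed in sign, neither with a change past the test. The lowest of the 12 values of the brighter probe was that of 20 months replicate 1, 1 of the 3 marker-high arrays, and without these arrays the change was 0.07 ± 0.10.

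Among the fibulins, Efemp1 and Fbln5 had the largest changes of the set, and Efemp2 had a change of 0.03. Efemp1 encodes fibulin-3, a short fibulin of basement membranes and elastic tissue. At 20 months its signal (probe A_55_P2048767) was 2.37, 2.41, 2.56, 2.45, 2.47 and 2.37 in replicates 1 to 6, and at 6 months it was 2.30, 1.88, 2.18, 1.81, 1.73 and 2.10. All mice at 20 months lay above all mice at 6 months, by a small gap between the nearest of them, and the values at 20 months lay closer together than those at 6 months. Efemp1 averaged 2.44 ± 0.07 at 20 months and 2.0 ± 0.23 at 6 months (SD, n = 6 each). Its change was 0.43 ± 0.10, a ratio of 1.35 with an interval of 1.16 to 1.57. The unadjusted p of 7.9e-04 placed Efemp1 at rank 110 of 16853 genes, and its adjusted p of 0.121 in limma did not pass the threshold. It was higher at 20 months within each slide, by 0.35, 0.64 and 0.31, and by 0.48 ± 0.105 without the 3 marker-high arrays. As the ages did not overlap, the sign was fixed in any such subset of arrays, and only the size could differ. Over 28 alternative settings, not counting the single slides, the change of Efemp1 stayed between 0.38 and 0.55 and its adjusted p between 0.0507 and 0.707.

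Fbln5 encodes fibulin-5, which binds tropoelastin and guides its deposition on microfibrils. On the brighter probe Fbln5 ran from 6.08 to 6.41 with a median of 6.20 at 20 months, and from 5.56 to 6.14 with a median of 5.95 at 6 months. Only the lowest values at 20 months reached into the range at 6 months. Fbln5 averaged 6.22 ± 0.13 at 20 months and 5.88 ± 0.26 at 6 months (SD, n = 6 each), a change of 0.34 ± 0.12 or a ratio of 1.26 with an interval of 1.06 to 1.5 (unadjusted p 0.0121, adjusted p 0.418, limma). By slide it was 0.29, 0.38 and 0.33. The dimmer probe of Fbln5, which was detected in 6 of 6 mice at 20 months and 5 of 6 at 6 months, gave a change of 0.42 ± 0.13 (unadjusted p 0.00501, adjusted p 0.332 over all probes). Both probes of Fbln5 thus gave a positive change of similar size in the main fit, and neither passed the adjusted threshold. The dimmer probe averaged only -2.53 at 20 months and -2.96 at 6 months. Over the alternative settings its change ran from 0.158 to 0.488, and that of the brighter probe from 0.27 to 0.448. Both probes were measured on the same RNA, so that they are not separate evidence about the mice.

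Efemp2 encodes fibulin-4, which tethers lysyl oxidase to tropoelastin and without which mice form no proper elastic fibres in the aorta. Its values ran from 4.81 to 5.20 with a median of 5.10 at 20 months and from 4.80 to 5.28 with a median of 5.07 at 6 months. The change of Efemp2 was 0.03 ± 0.10, a ratio of 1.02 with an interval of 0.879 to 1.19 (adjusted p 0.956, limma). Whether the changes of the 3 fibulins differ from each other was not tested.

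**Figure D2:**
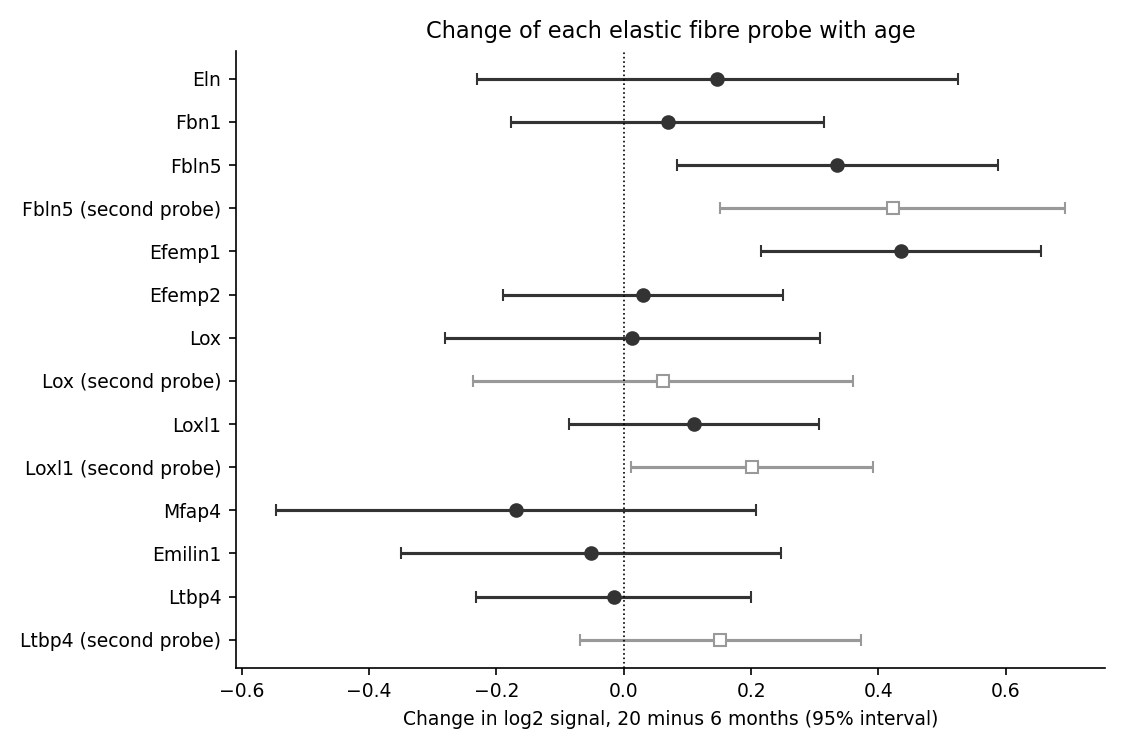
Change of log2 signal, 20 minus 6 months (x axis), for each of the 14 probes, with 95% intervals of the limma fit, n = 6 mice per age. Filled circles are the probes used for their gene and open squares the dimmer second probes; the intervals of Efemp1, both Fbln5 probes and the dimmer Loxl1 probe lie above 0, and none of the 14 passed the adjusted threshold.

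Lox encodes lysyl oxidase, the enzyme that starts the cross-linking of elastin and collagen. Its brighter probe ran from 0.33 to 1.11 with a median of 0.62 at 20 months and from 0.41 to 0.96 with a median of 0.57 at 6 months. The span at 6 months lay inside that at 20 months. The change of Lox was 0.01 ± 0.14, a ratio of 1.01 with an interval of 0.824 to 1.24 (adjusted p 0.988, limma), and the dimmer probe gave 0.06 ± 0.14. Loxl1 encodes a lysyl oxidase of elastic tissues that binds fibulin-5. It ran from 4.91 to 5.16 with a median of 5.08 at 20 months, and from 4.66 to 5.15 with a median of 4.99 at 6 months. The change of Loxl1 was 0.11 ± 0.09, a ratio of 1.08 with an interval of 0.945 to 1.23 (adjusted p 0.772, limma). Its dimmer probe gave 0.20 ± 0.09 with an unadjusted p of 0.039 and an adjusted p of 0.632 over all probes, where 7.56% of all probes had an unadjusted p under 0.05. The probes of Loxl1 agreed in sign, and those of Lox did too.

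The count of directions depended on which arrays were included. Without the 3 marker-high arrays, the change was positive for 10 of 10 members with a median of 0.14, beside 47.8% of all genes and a median of -0.01. Without these 3 and 6 months replicate 3, it was positive for 8 of 10 with a median of 0.08, beside 45.1% of all genes and a median of -0.02. It was positive for 5 of 10 when 6 months replicate 3 or 6 months replicate 6 was left out, with medians of 0.01 and 0.02. Of all genes, 42.2% and 47.1% were positive in these 2 settings. By slide, 5, 8 and 9 of the 10 members had a positive change, with medians of -0.02, 0.05 and 0.15 in slides 1 to 3. Beside them, 47.5%, 48.3% and 44.2% of all genes were positive. No member passed the adjusted threshold under any of the 28 alternatives.

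The mean of the 10 genes on an array, each set relative to its own 12-array mean, ran from -0.11 to 0.22 at 20 months and from -0.25 to 0.20 at 6 months. The lowest arrays were 6 months replicates 3 and 6 (-0.25 and -0.23), and the highest was 20 months replicate 3. In those 2 low arrays the mean of 8 smooth muscle markers was also the lowest, at -0.34 and -0.39, and the mean of 5 brown adipocyte markers was high, at 0.79 and 1.175. In 20 months replicate 1, the lowest array of its age, the elastic fibre mean was -0.11, the smooth muscle mean -0.19 and the brown adipocyte mean 0.89. Fibroblast markers did not share the low values of the 2 arrays, with 0.08 and 0.035. The part of these cell types in the values of the elastic fibre genes was not tested.

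**Figure D3:**
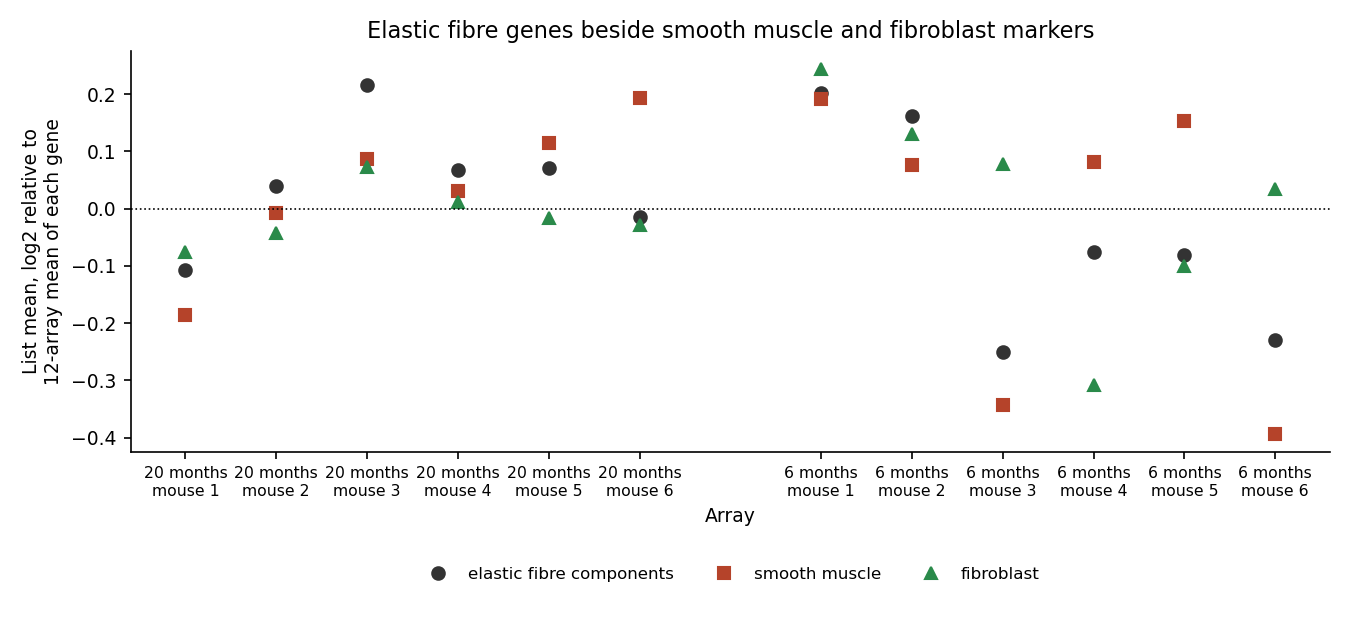
Mean of the 10 elastic fibre genes (black circles), of 8 smooth muscle markers (red squares) and of 8 fibroblast markers (green triangles) on each of the 12 arrays, as log2 relative to each gene's 12-array mean (y axis). In 6 months replicates 3 and 6 the elastic fibre mean (-0.25 and -0.23) and the smooth muscle mean (-0.34 and -0.39) are both low, and the fibroblast mean (0.08 and 0.035) is not.

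In several marker lists all measured genes had a change of 1 sign, beside the positive changes of Efemp1 and Fbln5, although the list means of the ages overlapped in each. The 4 chondrocyte markers measured were all higher in the mean at 20 months, with list means of -0.09 to 0.64 at 20 months and -0.86 to 0.42 at 6 months. Col2a1, the defining collagen of cartilage, was detected in 5 of 6 mice at 20 months and 2 of 6 at 6 months. The 6 macrophage markers were all higher in the mean at 20 months (-0.08 to 0.43 at 20 months, -0.47 to 0.25 at 6 months). The 4 mesothelial markers were all lower in the mean at 20 months (-2.35 to 0.87 at 20 months, -0.12 to 2.55 at 6 months), as were the 5 brown adipocyte markers (-0.67 to 0.89 at 20 months, -0.43 to 1.175 at 6 months) and the 5 markers of T and NK cells measured (-0.58 to 0.175 at 20 months, -0.525 to 1.53 at 6 months). No gene of these lists passed the adjusted threshold, and their part in the changes of Efemp1 and Fbln5 was not tested. The smooth muscle markers, by contrast, were higher for 5 and lower for 3 of 8, with a median change of 0.05.

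The members were also compared from mouse to mouse within an age. Over the 12 arrays, after each age's mean was taken away, 41 of the 45 pairs of members had a positive Pearson correlation, with a median r of 0.499. Over all pairs of genes tested, 51.2% were positive and the median was 0.014. An r of at least 0.733, the lowest that passed the test below, was reached by 7 of the 45 pairs of members and by 3.48% of all pairs. All genes of an array share its scaling and its tissue make-up, which such correlations contain. Of the 45 pairs, 4 passed Benjamini-Hochberg adjustment of a two-sided permutation test within ages. The highest correlation was that of Fbn1 with Lox (r = 0.871, permutation p = 0.0002, adjusted 0.009, Spearman's rho 0.867 with permutation p = 0.00135). It fell to 0.685 without the 2 arrays farthest from the median of Fbn1. Efemp2 correlated with Mfap4 (r = 0.843, permutation p = 0.00189, adjusted 0.0425, rho 0.783 with permutation p = 0.00626, r = 0.767 without the 2 farthest arrays). Efemp2 also correlated with Loxl1 (r = 0.805, permutation p = 0.0038, adjusted 0.0479, rho 0.769 with permutation p = 0.00406, r = 0.663 without the 2 farthest). Loxl1 with Ltbp4 gave r = 0.733 (permutation p = 0.00426, adjusted 0.0479, rho 0.608 with permutation p = 0.0504, r = 0.683 without the 2 farthest). None of the rank correlations passed adjustment over the 45 pairs, the lowest adjusted value being 0.0607 for Fbn1 with Lox.

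A slide held 4 arrays, too few for a correlation within it. With slide means taken away as well, the 4 pairs kept r of 0.921, 0.833, 0.8 and 0.732 in the order given. Adjustment was passed by 18 of the 45 pairs, although the permutation does not allow for the degrees of freedom that the slide means take up. A positive r was found in 38 of the 45, beside 50.3% of all pairs of genes tested. An r of at least 0.733 was reached by 15 of the 45 and by 4.22% of all pairs. The pairs of Eln depended on whether slide means were taken away. With age means alone taken away its r ran from -0.12 with Efemp1 to 0.51 with Loxl1 and none of its 9 pairs passed, whereas with slide means taken away too it ran from 0.03 with Efemp1 to 0.86 with Fbln5 and 5 of the 9 passed (those with Fbn1, Fbln5, Lox, Loxl1 and Mfap4). No pair with Efemp1 passed in either setting. Its r with the other 9 members ran from -0.46 for Emilin1 to 0.46 for Fbn1 over both ages, from -0.56 to 0.97 within the 6 mice of 20 months, where it was 0.97 with Mfap4 and Fbln5, and from -0.46 to 0.39 within the 6 mice of 6 months. The mice of 6 months, with the larger SD of Efemp1, weigh more in the joint value, and the difference between the ages in r was not tested.

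**Figure D4:**
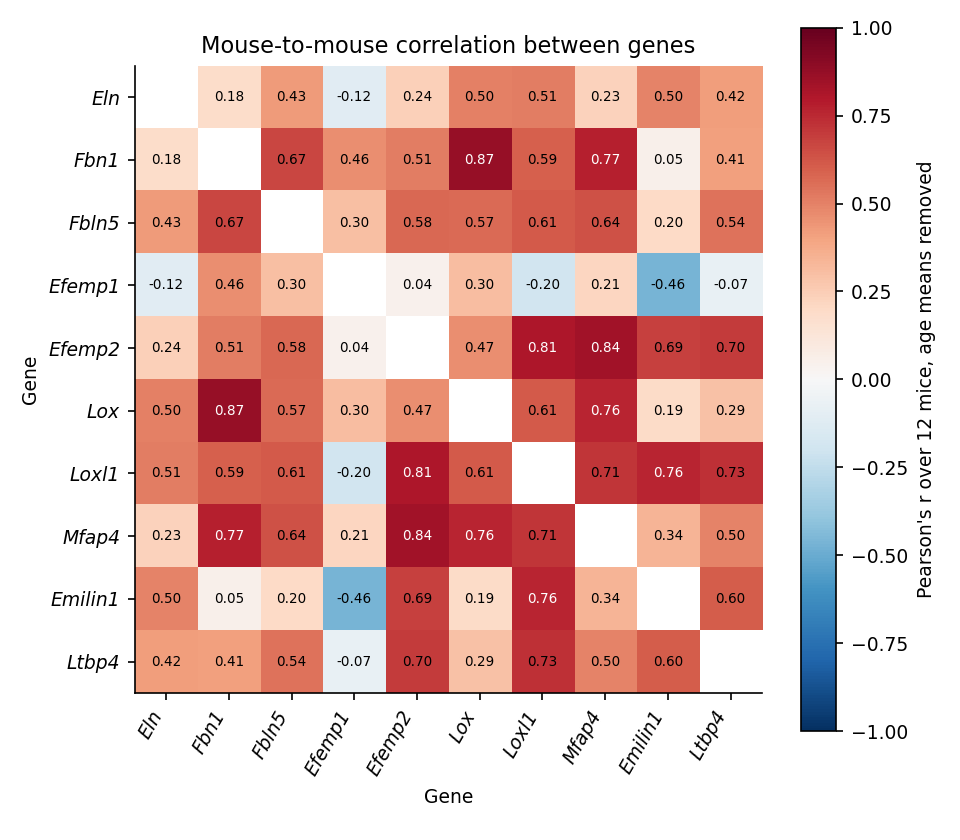
Pearson's r between each pair of elastic fibre genes over the 12 mice with the mean of each age taken away, as a colour and a printed value (rows and columns are genes). Fbn1 with Lox reaches 0.87 and Efemp2 with Mfap4 0.84, and the row of Efemp1 holds the 4 values below 0.

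Genes outside the set were compared over the 12 arrays too, with each age's mean taken away. Those most like Eln were Slc39a10, a zinc transporter (r = 0.926), and Pygb, the brain form of glycogen phosphorylase (0.919). Next came Zfp101 (0.889), and Cxxc5 and the transcription factor Gata6 (0.887 each). Among those most like the mean of the 10 members were Scrn1 (r = 0.976), Ecm1, extracellular matrix protein 1 (0.969), Myh10, a non-muscle myosin heavy chain (0.956), and LOC100045981 (0.954). They were picked from all other genes tested as the highest r over 12 arrays and are given as a description. No gene of these 9 passed the test between the ages.

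Within an age, the SD of 7 of the 10 members was smaller at 20 months, with a median SD of 0.174 at 20 months and 0.233 at 6 months. The same held for 65.9% of all genes, so that the members stood near the rest of the array. Efemp1 and Loxl1 had the smallest SD of the members at 20 months, 0.07 and 0.08, against 0.23 and 0.19 at 6 months.

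The other genes of elastic fibre biology were read from 5 lists. None of their genes passed the adjusted threshold (limma), where 0.261% of all genes were called higher and 0.0534% lower at 20 months. Of 31 other elastic fibre and microfibril genes, 28 were measured, 17 with a positive and 11 with a negative change and a median of 0.03. Fbln7, a further fibulin, averaged 3.15 ± 0.16 at 20 months and 2.57 ± 0.38 at 6 months (SD, n = 6 each), a change of 0.58 ± 0.155 (adjusted p 0.220). Bgn, the small proteoglycan biglycan, averaged 5.79 ± 0.09 at 20 months and 5.38 ± 0.29 at 6 months, a change of 0.41 ± 0.12 (adjusted p 0.271). The changes of Ltbp3, a latent TGF-beta binding protein, and Adamtsl5, an ADAMTS-like protein of microfibrils, were 0.24 ± 0.08 and 0.25 ± 0.10 (adjusted p 0.460 and 0.563). Mfap5, a small microfibril glycoprotein, was the 1 gene of the list with a negative change at an unadjusted p under 0.05 (-0.25 ± 0.11, adjusted p 0.585). Without 6 months replicate 1 the change of Fbln7 was 0.71 with an adjusted p of 0.026 (limma). Without the 3 marker-high arrays, which include that array, it was 0.68 with an adjusted p of 0.0467 (limma). Fbln7 passed in these 2 of 28 alternatives and not in the other 26, where its adjusted p reached 0.633.

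Of 15 enzymes that can degrade elastin, 11 were measured, 7 with a positive and 4 with a negative change and a median of 0.05. The macrophage elastase Mmp12 and the neutrophil proteases Prtn3 and Ctsg were among the 4 that did not pass the filter on dim probes. Mmp2, gelatinase A, averaged 2.19 ± 0.13 at 20 months and 2.0 ± 0.15 at 6 months, a change of 0.19 ± 0.09 (adjusted p 0.624). The elastase Cela1 and the cathepsins Ctsk and Ctss had changes of 0.33 ± 0.21, 0.15 ± 0.11 and 0.18 ± 0.17, none past the test even before adjustment. Of 10 inhibitors of such enzymes, 8 were measured, 5 with a positive and 3 with a negative change. Timp1, a metalloproteinase inhibitor, stood 0.29 ± 0.14 higher in the mean at 20 months (adjusted p 0.657) and Slpi, a secreted inhibitor of serine proteases, stood at -0.72 ± 0.35 (adjusted p 0.660). Timp3, the inhibitor bound to matrix, and Reck, a membrane-anchored one, had changes of 0.11 ± 0.10 and 0.07 ± 0.10.

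All 11 genes of the elastin receptor complex and of integrins that bind fibre components were measured, 6 with a positive and 5 with a negative change. Itga5, the alpha chain of the fibronectin receptor, averaged 1.86 ± 0.33 at 20 months and 1.17 ± 0.32 at 6 months (SD, n = 6 each). Its change of 0.70 ± 0.17, a ratio of 1.62, was the most positive in the 5 lists, with an adjusted p of 0.173. Ctsa, the protective protein of the receptor complex, Itgb5, an integrin beta chain, and Glb1, whose splice form is the elastin-binding protein, had changes of -0.19 ± 0.10, 0.15 ± 0.11 and 0.08 ± 0.07. Of the 9 regulators of elastin transcription, 6 had a positive change and 3 a negative one, with a median of 0.22. The 3 TGF-beta ligands, inducers of elastin, were each higher in the mean at 20 months: Tgfb1 by 0.32 ± 0.09 (adjusted p 0.237), Tgfb2 by 0.54 ± 0.18 (adjusted p 0.394) and Tgfb3 by 0.30 ± 0.14 (adjusted p 0.647). Mybl2, the transcription factor B-Myb, stood at -0.27 ± 0.13.

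**Figure D5:**
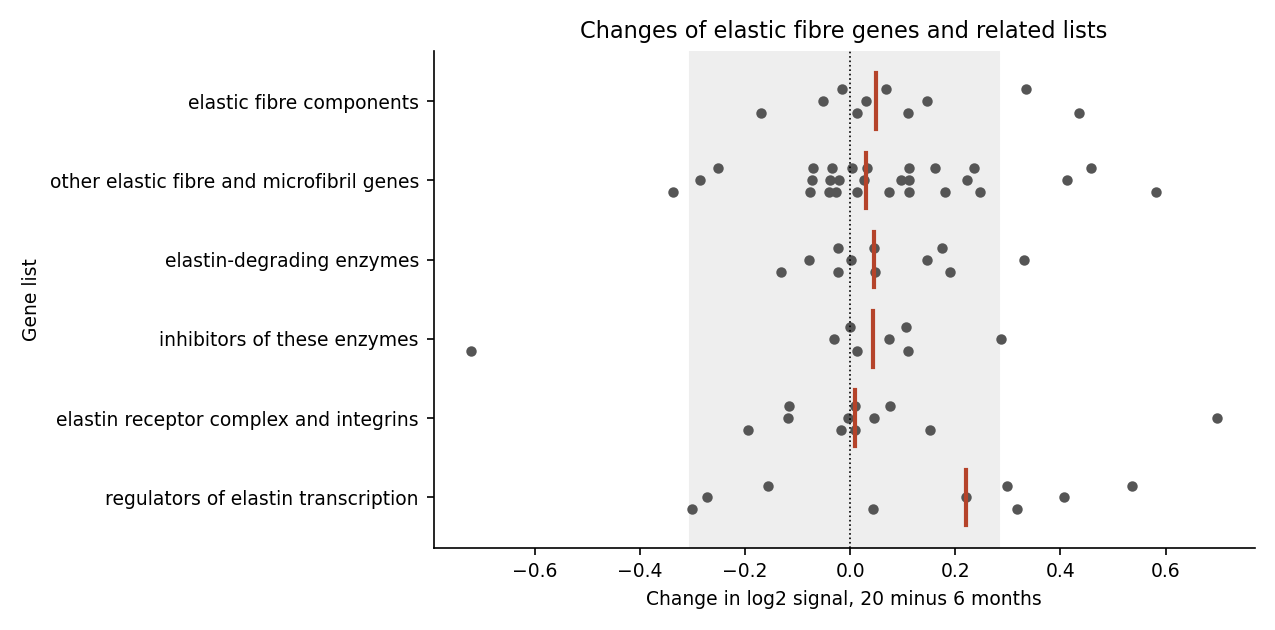
Change of log2 signal, 20 minus 6 months (x axis), of each measured gene (points) in the 10 elastic fibre components and in 5 related lists, with the median of each list as a red bar. The grey band runs from the 5th to the 95th percentile of all 16853 genes, -0.30 to 0.28; Efemp1 (0.43) and Fbln5 (0.34) are the members to its right.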

How the data were processed

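RNA of 12 aortas was hybridised to 1-colour (Cy3) arrays, 1 array a mouse. The authors read them, per the file headers, with Agilent Feature Extraction 10.7.1.1 (design 028005, positions in mm9). The deposited intensity is the processed green signal, already background-subtracted and not scaled between arrays. A deposited table of log2 values of the same arrays, with the scaling and centring steps not given in the sources used here and each probe's median at 0, served as an alternative. For the members it gave nearly the same changes as quantile normalization here (0.1782 and 0.1785 for Eln). The 2 are therefore hardly separate readings.

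Here the log2 of that signal was used without spots marked as outliers, relative to the 75th percentile of the gene probes on the same array. Probes well above background on at least 6 of 12 arrays were kept. Names came from a RefSeq table of assembly GRCm38.p6 by accession (26413 probes) or symbol (4594), or else from the array (4779), and 19895 probes have none. The probe with the highest mean signal stood for a gene. The ages were compared with limma 3.58.1 in R 4.3.3 (data.table version 1.17.8), with Benjamini-Hochberg adjustment over 16853 genes or, for single probes, 27583 probes. The procedure was tested on simulated data with independent noise for each gene and 200 genes changed by known folds. It called 13.2% of the genes changed 1.25-fold and 57.2% of those changed 1.5-fold. At 2-fold and 3-fold it called 81.6% and 96.8%, and 3.7% of all calls were false. Most changes of 1.25-fold were thus missed. Correlations used 100000 permutations within ages. No array pair held identical values. The number of arrays limits the precision.

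The members, the 5 lists, the marker lists and the alternatives were chosen with earlier results of these data known. Named outside the members are up to 4 genes of each list with the smallest p, any past the threshold, and the 5 most like Eln and like the members' mean, 1 of which is not reported here. Mfap5, the marker genes and the 3 enzymes not measured were named after their values were seen. The alternatives were normexp background correction (offset 50), 3 other scalings, the value table, 2 other filters, slide and replicate blocks, slides alone, trend and robust settings, array weights, means over probes, every probe tested, and left-out arrays. Leaving out 4 arrays was added after seeing the data. Slides taken alone are not counted among the 28 alternatives per member.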

Additional observations from a re-analysis of the deposited data

Results flagged for a closer look

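In 68 groups of 6 values (the members with all their probes and the named genes of the lists, at each age), 3 held a value far from the rest by Dixon's ratio at its 95% critical value of 0.625. Chance gives about 1 in 20 such groups, and 3 of 68 does not exceed that share. Ltbp4 stood at 6.88 in 20 months replicate 1, where the nearest other mouse of 20 months had 7.20. This array is the one with the highest heart muscle markers, and also with the highest white adipocyte (0.477) and macrophage (0.429) list means. Mmp2 stood at 1.71 in 6 months replicate 4, with the nearest other mouse of that age at 1.98, and that array had the highest markers of T and NK cells. Slpi stood at 2.03 in 6 months replicate 3, with the nearest other mouse of that age at 0.60, and that array had the highest mesothelial markers (list mean 2.55 above the 12-array mean). The part of these tissues in the 3 values was not tested.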

How the results depend on the processing

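Each member was recomputed under 28 alternatives, not counting the slides taken alone, which gave 280 values in all. Of these, 261 kept their direction and stayed short of the threshold, 19 changed sign without passing it, and none passed it. Other filters, slide and replicate blocks, trend and robust settings and every probe tested left each member's change as in the main fit. There the sign could not turn, and only the test could differ. Among the slides taken alone, the sign turned for Efemp2 in slide 1, Lox in slides 1 and 2 and Mfap4 in slide 3. It also turned for Emilin1 in slide 2 and Ltbp4 in slides 2 and 3. The cause of the differences below was not tested. Ltbp4 turned positive under quantile normalization (0.0788), median scaling (0.0178), the value table (0.0791), array weights (0.00941), the mean over probes (0.0681) and without the 3 marker-high arrays (0.0709) or these and 6 months replicate 3 (0.0291). Lox turned to -0.0436 under array weights, and Mfap4 to 0.0677 and Emilin1 to 0.0110 without those 3 arrays. With 1 array left out at a time, the change ran from -0.0140 to 0.0814 for Efemp2, -0.0791 to 0.0777 for Lox (-0.0549 to 0.115 for its dimmer probe), -0.131 to 0.0213 for Emilin1, -0.0467 to 0.0532 for Ltbp4 and -0.00801 to 0.117 for Reck. Over the same omissions, 19 to 48 genes were called higher and 2 to 11 lower, and 37 to 68 probes higher and 1 to 8 lower. The fewest genes called higher came without 20 months replicate 2 (19) and the most without 6 months replicate 6 (48). Genes called higher numbered 44, and 29 under median scaling, 20 with no filter, 80 with array weights, 26 without the 3 arrays and 11 without the 4. Genes called lower numbered 9, and 5 under normexp, 4 under median scaling, 3 with no filter, 15 with array weights, 4 without the 3 arrays and 0 without the 4. Probes called lower numbered 10, and 5 under normexp, 4 under median scaling, 6 with the percentile over probes above background on all arrays, 3 with no filter, 16 with a fixed block for slide and 17 with a random one. Member pairs past the threshold numbered 4, and 18 with slide means removed. With the replicate number as a block, 6 genes were called higher and 0 lower. The numbers were not taken to pair the mice: the deviations of same-numbered arrays correlated at -0.36 to 0.323 and 1 of 6 arrays at 20 months correlated best with its own number. The block changed no call among the members. With 6 arrays per age, the intervals of 8 members, all but Efemp1 and Fbln5, include no change.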
